A study of Mus musculus with 160 samples.

Results

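The 33 genes described here are cell cycle genes, taken by name from a fixed list out of 56980 gene identifiers in the tables. Each of the 33 was found once, and each passed the filter on low counts in all 5 tissues. By role they fall into 5 groups: 2 proliferation markers (Top2a and Mki67), 7 mitotic cyclins, kinases and their regulators (Ccna2, Ccnb1, Ccnb2, Cdk1, Foxm1, Plk1 and Aurka), 8 genes of the kinetochore, the spindle checkpoint and anaphase (Bub1, Bub1b, Cenpe, Cenpf, Aurkb, Birc5, Cdc20 and Ube2c), 6 genes of the spindle and midzone (Kif11, Kif20a, Kif23, Nusap1, Tpx2 and Prc1), and 10 genes of G1/S control and DNA replication (E2f1, Ccne1, Ccne2, Mcm2, Mcm3, Mcm5, Mcm6, Pcna, Rrm2 and Tyms). They were measured by RNA sequencing in 3 fat depots (subcutaneous, visceral and brown), quadriceps muscle and liver of male mice. The mice belonged to 4 inbred strains, DBA/2J, SJL, A/J and C57BL/6J, and changed at 12 weeks of age from chow to a vegan, vegetarian, Mediterranean or American diet, each a mouse version of a human diet, all matched in calories and macronutrients. Tissues were taken 6 weeks later, at 18 weeks of age. Each tissue had 32 libraries, 2 mice for each strain on each diet. The labels name no transgene and no other treatment. As background, SJL and A/J mice are known to carry different defective alleles of dysferlin, a membrane repair gene of muscle.

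A cell that divides turns on these genes in an order. E2F factors release genes of the G1/S transition and of replication, while genes of mitosis come on later, in large part through FOXM1 and B-MYB acting with the MuvB core of the DREAM complex, which holds the same genes down in resting cells. In bulk tissue of adult mice most parenchymal cells rest, so that such transcripts are known to come largely from dividing blood, immune, progenitor and stromal cells. Fewer cells of a dividing type and less RNA per such cell cannot be told apart in these data.

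The promoters of the mitotic genes carry sequence elements through which these factors are known to act: the CHR, written TTTGAA or TTCGAA, to which the MuvB core binds, and the CCAAT box, bound by NF-Y. The RefSeq promoter table on build GRCm38.p6 held 28 promoters for 27 of the 33 genes, with 2 for Prc1, and none for Aurkb, Ccna2, Ccne2, Foxm1, Kif20a and Tpx2. Over the 250 bases before the start, read on both strands, CCAAT stood in 23 of the 28, against 33.8% of all 32851 promoters of the same length. A CHR stood in 10 of the 28, in 9 of 19 promoters of the mitotic groups and in 1 of 9 of the G1/S group, against 17.1% of all promoters. Every one of those 10 also held CCAAT, a pair found in 6.02% of all promoters. An E2F element spelled TTTCCCGC or TTTGGCGC stood in 2 of the 28, those of Mcm5 and Mcm6, against 1.3% of all. These are matches of letters on the reference sequence, which comes from C57BL/6J. They are not measured sites, and the sequences of the other strains were not read here.

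The promoters of 5 genes of the kinetochore and anaphase group are printed because 7 of the 8 genes of that group were called together in the brown fat of DBA/2J mice, described further on. As many were called of the mitotic cyclins and kinases there and in SJL muscle, and of the kinetochore group in A/J brown fat and SJL muscle. Among these the smallest adjusted p decided. The 5 printed are those with the smallest adjusted p in DBA/2J brown fat that had a promoter in the table, in that order. Capitals mark CHR and CCAAT matches on either strand, and each run reads 5′ to 3′ along the gene's strand up to the base before the start. Birc5, the survivin gene of the chromosomal passenger complex, lies at chr11:117848987-117849236 on the plus strand. Cenpf, a kinetochore protein of late G2 and mitosis, lies at chr1:189688087-189688336 on the minus strand. Bub1, a kinase of the spindle checkpoint, lies at chr2:127831860-127832109 on the minus strand. Cenpe, the kinetochore motor that brings chromosomes to the spindle equator, lies at chr3:135212313-135212562 on the plus strand. Cdc20, the activator of the anaphase-promoting complex, lies at chr4:118437344-118437593 on the minus strand.
Birc5: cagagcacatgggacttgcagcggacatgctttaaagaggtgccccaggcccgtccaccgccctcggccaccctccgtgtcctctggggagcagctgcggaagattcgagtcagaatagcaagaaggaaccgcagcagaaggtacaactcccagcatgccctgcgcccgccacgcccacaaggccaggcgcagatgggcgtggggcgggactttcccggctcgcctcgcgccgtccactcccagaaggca
Cenpf: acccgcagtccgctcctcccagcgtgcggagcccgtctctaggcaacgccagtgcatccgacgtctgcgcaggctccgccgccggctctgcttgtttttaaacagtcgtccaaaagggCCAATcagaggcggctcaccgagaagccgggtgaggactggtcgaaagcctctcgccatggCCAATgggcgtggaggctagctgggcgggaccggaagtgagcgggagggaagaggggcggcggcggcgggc
Bub1: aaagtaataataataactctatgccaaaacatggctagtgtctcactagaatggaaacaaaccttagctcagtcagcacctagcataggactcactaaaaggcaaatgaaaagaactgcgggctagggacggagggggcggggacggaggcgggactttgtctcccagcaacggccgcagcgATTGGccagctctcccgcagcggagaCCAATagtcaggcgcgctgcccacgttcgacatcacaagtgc
Cenpe: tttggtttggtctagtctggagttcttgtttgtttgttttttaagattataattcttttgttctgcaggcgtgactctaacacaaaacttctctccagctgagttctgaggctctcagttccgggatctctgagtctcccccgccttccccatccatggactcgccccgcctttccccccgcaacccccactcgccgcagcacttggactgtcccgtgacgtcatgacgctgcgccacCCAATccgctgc
Cdc20: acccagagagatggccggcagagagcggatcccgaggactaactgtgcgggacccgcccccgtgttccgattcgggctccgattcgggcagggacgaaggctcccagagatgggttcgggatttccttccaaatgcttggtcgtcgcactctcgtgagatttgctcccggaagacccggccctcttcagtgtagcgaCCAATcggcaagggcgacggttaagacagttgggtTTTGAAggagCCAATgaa
Cdc20 was the one of these 5 with a CHR, TTTGAA at 18 bases before the start, between CCAAT boxes at 53 and 8 bases. Cenpf held CCAAT at 132 and 71 bases before the start. Bub1 held it at 68 bases on the other strand and at 42 bases on its own strand, and Cenpe at 12 bases. The Birc5 window held neither element in these spellings.

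Library totals over the 160 libraries were such that 1 CPM stood for 18.0 to 54.8 counts before scaling. Levels within a tissue are CPM after TMM scaling, and levels between tissues or genes are the authors' TPM, which is per length. A library was taken to carry another tissue where its Alb exceeded 10% of the mean in liver, or where Wt1 in visceral fat or Hoxc10 in subcutaneous fat was below 10% of that depot's median. There were 10 in visceral fat, 8 in muscle, 5 in subcutaneous fat and 4 in brown fat. Muscle transcripts were read apart from these: Ckm, the creatine kinase of muscle, was over 10% of its mean in muscle in 5 subcutaneous and 2 visceral libraries, 5 of these 7 not among those just counted, and C57BL/6J mouse 2 in visceral fat had the most, 26.5%. High Cd79a, a B cell gene, marked 3 brown fat, 2 visceral fat and 1 muscle libraries. Counts within tissues were also made without each of these sets. Reads were aligned with a relaxed mismatch penalty in strains other than C57BL/6J, so alignment and strain cannot be told apart in a comparison that includes C57BL/6J. DBA/2J, SJL and A/J share 1 setting, and each was also set against the other 2 alone, a comparison chosen after the data were seen.

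The cell cycle genes were most abundant in subcutaneous fat, next in visceral fat, and scarce in brown fat, muscle and liver. Mean TPM was highest in subcutaneous fat for 30 of the 33 genes and second highest in visceral fat for 28. It was lowest in liver for 22, in muscle for 9 and in brown fat for 2. Mki67, the Ki-67 antigen of cycling cells, averaged 10.02 ± 4.79 TPM in subcutaneous fat (SD, n = 32). It averaged 5.30 ± 3.53 TPM in visceral fat, 1.21 ± 1.31 TPM in brown fat, 0.681 ± 0.665 TPM in muscle and 0.428 ± 0.181 TPM in liver. Top2a, the topoisomerase that untangles replicated chromosomes, followed the same order at 7.66, 4.11, 0.947, 0.570 and 0.375 TPM. The lowest subcutaneous library for both, at 2.06 TPM of Mki67, was that of A/J mouse 24, one of the libraries with too little of its depot's own marker.

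**Figure D1:**
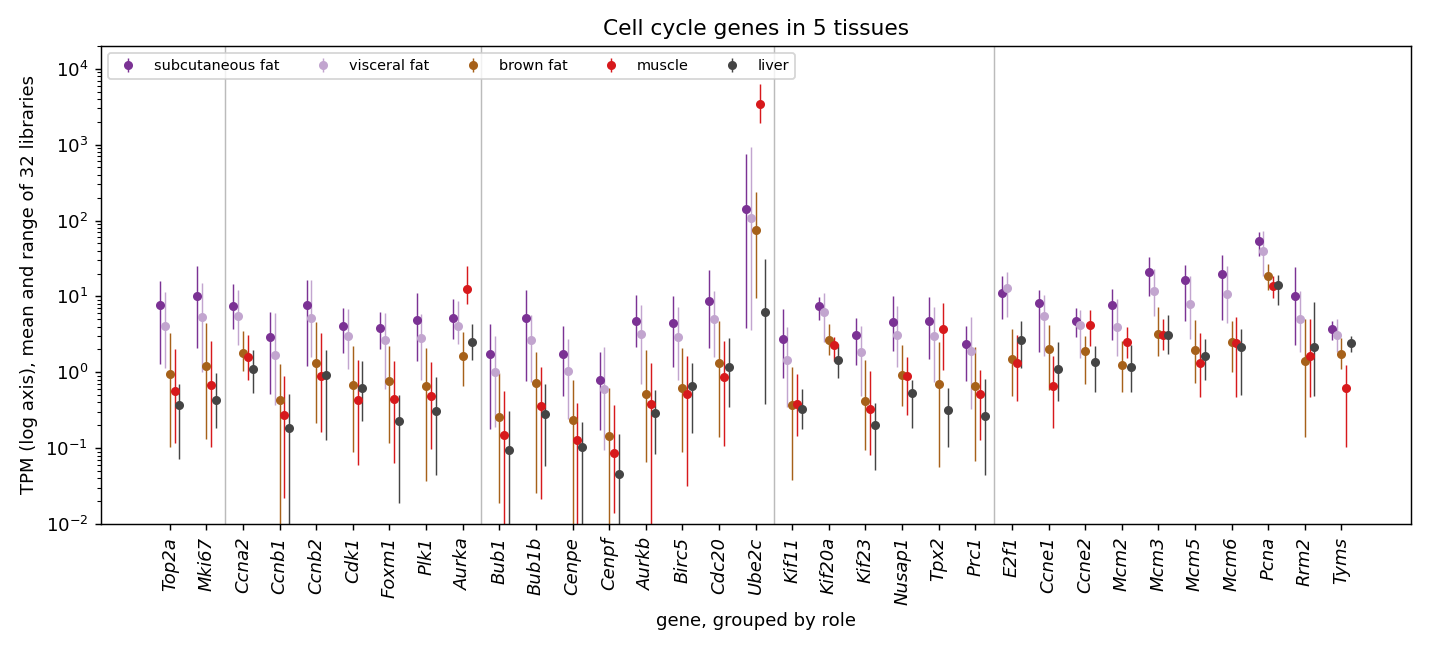
TPM of the 33 genes in the 5 tissues, on a log axis, with the mean as a point and the range of 32 libraries as a line; lines cut by the lower edge go on to lower values or 0. Grey lines part the groups by role, and Ube2c and Aurka are the genes with their highest mean in muscle.

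In the fit over all 160 libraries, with strain and diet as terms, differences between tissues were common among all 21166 genes tested, and the counts of the 33 are read against that. In visceral against brown fat 31 members were higher and 0 lower, where 46.9% of all genes were higher and 33.3% lower. In visceral against subcutaneous fat 28 were lower, against 27.8% of all genes, and E2f1 alone was higher, against 34.4%. In visceral fat against liver 30 were higher (47.9% of all genes) and 2 lower (40.3%), and against muscle 28 were higher (47.8%) and 5 lower (35.5%). In brown against subcutaneous fat 31 were lower (43.8%) and 0 higher (35.1%). In subcutaneous fat against liver 31 were higher (50.6%) and 2 lower (38.8%), and against muscle 29 were higher (47.2%) and 4 lower (39.7%). The other 3 comparisons split more evenly. Brown fat against liver gave 17 higher (48.2%) and 11 lower (38.3%), brown fat against muscle 6 higher (37.5%) and 8 lower (44.8%), and liver against muscle 10 higher (40.3%) and 12 lower (46.9%).

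Mki67 was lower in visceral than in subcutaneous fat by a log2 difference of -0.97 (SE 0.221, edgeR adjusted p = 7.07e-05) and higher in visceral than in brown fat by 1.53 (SE 0.226, edgeR adjusted p = 6.51e-10). Between liver and muscle neither Mki67 (log2 difference -0.24, SE 0.226, edgeR adjusted p = 0.316) nor Top2a (log2 difference -0.21, SE 0.215, edgeR adjusted p = 0.346) passed the test. Pcna, the sliding clamp of the replication fork that also serves DNA repair, was the most abundant member in every tissue once Ube2c is set aside, at a mean of 53.0 TPM in subcutaneous fat, 39.2 in visceral fat, 18.4 in brown fat, 13.8 in muscle and 13.97 in liver. Its log2 difference between subcutaneous fat and liver was 0.58 (SE 0.0566, edgeR adjusted p = 1.49e-18), where that of Mki67 was 3.20 (SE 0.237, edgeR adjusted p = 2.56e-27). Tyms, thymidylate synthase, was lower in visceral fat than in liver by -0.89 (SE 0.0846, edgeR adjusted p = 2.2e-19), although its mean TPM was 3.07 in visceral fat and 2.41 in liver. With limma on log2(TPM + 1) the direction was reversed, at 0.24, so the direction for Tyms depends on the scale. Of the 286 calls between tissues, 16, of 11 members, went against the order of the mean TPM. Aurka was called lower than in liver in visceral fat, by -0.54 (SE 0.113, edgeR adjusted p = 5.36e-06), and in subcutaneous fat, by -0.28 (SE 0.113, edgeR adjusted p = 0.0163), although its mean TPM was 4.04 in visceral fat, 5.25 in subcutaneous fat and 2.53 in liver. Ccne2 and Tpx2 were called lower in subcutaneous fat than in muscle, by -0.99 (SE 0.0743, edgeR adjusted p = 6.76e-27) and -0.71 (SE 0.174, edgeR adjusted p = 9.81e-05), although both had their highest mean TPM in subcutaneous fat. E2f1, the transcription factor that opens S phase, was higher in visceral than in subcutaneous fat (log2 difference 0.36, SE 0.109, edgeR adjusted p = 0.00254).

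B cell genes were high in the tissue where the cell cycle genes were high. The summed TPM of 7 B cell markers had a median of 683 over the subcutaneous libraries (2.80 to 1300.3), of 26.1 in visceral fat (12.0 to 791), 3.91 in brown fat (1.29 to 89.4), 2.47 in muscle (0.682 to 20.8) and 5.48 in liver (2.22 to 12.1). The summed TPM of 7 macrophage markers had medians of 1643 in subcutaneous fat, 1508 in visceral fat, 208 in brown fat, 239 in muscle and 351 in liver. None of these 14 markers was at 0 throughout a tissue. The A/J mouse 24 library had 2.80 TPM of B cell genes and 7.32 CPM of Mki67, the least of the 32 subcutaneous libraries for both, and the other 31 had B cell sums of 313 TPM or more. The part of these cells in the order of the tissues was not tested.

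**Figure D2:**
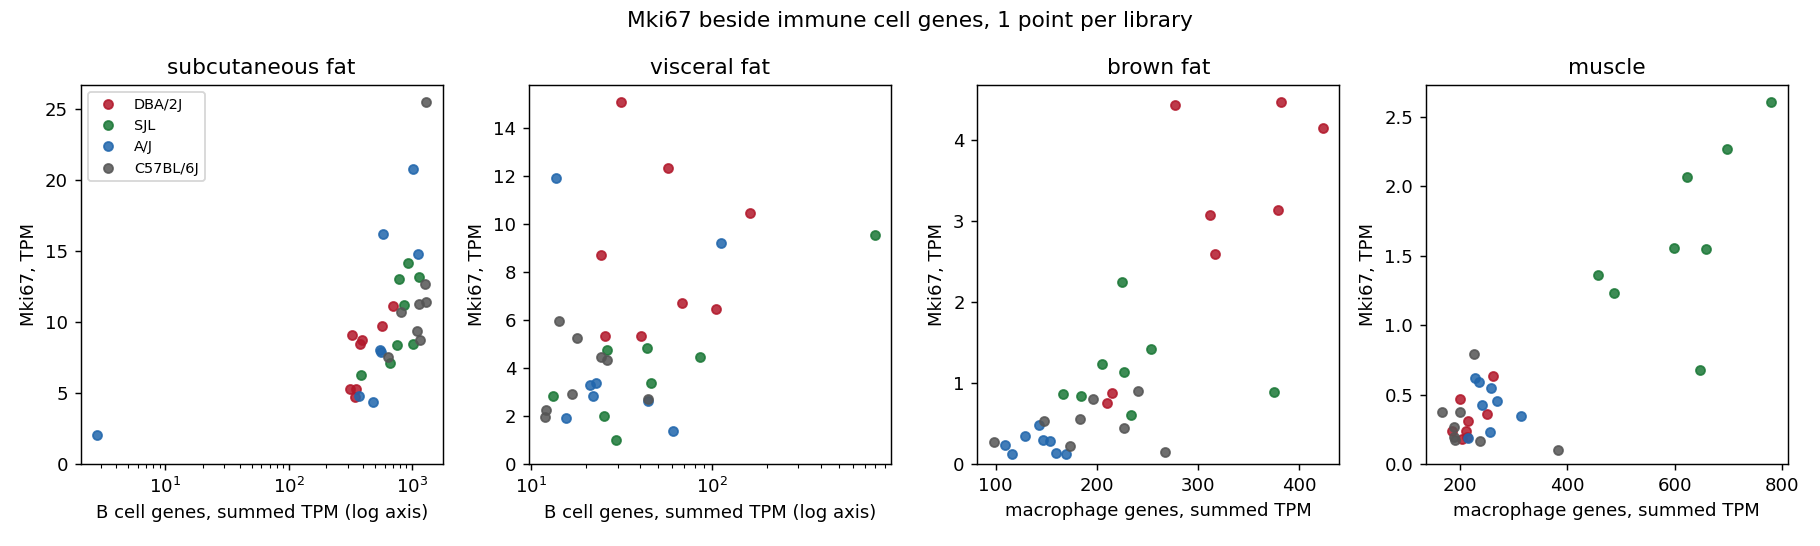
Mki67 TPM of each library beside the summed TPM of B cell genes (subcutaneous and visceral fat, log axis) or of macrophage genes (brown fat and muscle), coloured by strain. The 8 SJL muscle libraries lie at 456 to 779 TPM of macrophage genes and the other 24 at 383 or less, and 1 subcutaneous A/J library stands far to the left at 2.80 TPM of B cell genes.

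In muscle 3 genes went another way. Aurka, the kinase of the spindle poles, averaged 12.6 ± 5.17 TPM in muscle and 5.25 TPM in subcutaneous fat, and was lower in subcutaneous fat than in muscle by -2.46 (SE 0.119, edgeR adjusted p = 2.47e-45) on the log2 scale. Tpx2, which activates Aurora A on the spindle, averaged 3.71 TPM in muscle, against 4.68 in subcutaneous fat, 0.708 in brown fat and 0.314 in liver. On the log2 scale Tpx2 was lower in brown fat than in muscle by -2.83 (SE 0.187, edgeR adjusted p = 1.74e-31). Ccne2, a cyclin of the G1/S transition, averaged 4.19 TPM in muscle, against 4.73 in subcutaneous fat, 1.91 in brown fat and 1.37 in liver. Plk1, the polo-like kinase of mitosis, averaged 0.480 TPM in muscle and 4.82 in subcutaneous fat.

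Ube2c, the ubiquitin-conjugating enzyme of the anaphase-promoting complex, was listed at 3417 ± 848 TPM in muscle (SD, n = 32), far above every other member in any tissue. In build GRCm39 the gene lies on the plus strand of chromosome 2 at 164611768 to 164620742, and its 3′ part shares 616 exon bases with Tnnc2, the troponin C of fast muscle fibres, on the minus strand. The Ube2c TPM was 30.8% of that of Tnnc2 in the median muscle library and kept between 30.77% and 30.82% over all 32. The median was 31.1% in brown fat, 33.9% in visceral fat, 34.7% in liver and 35.9% in subcutaneous fat. It was larger in libraries with little Tnnc2, up to 1118% in visceral fat, in A/J mouse 20, which had 7.22 TPM of Ube2c and 0.646 TPM of Tnnc2. The kit marks strand, and the strand setting of the counting is not given in the sources used here, so where Tnnc2 is high, reads of Ube2c and of Tnnc2 cannot be told apart. Ube2c is therefore kept in the counts but given no further weight. In all, 11 members share exon bases with a protein-coding gene on the other strand, among them Aurka with Fam210b and Cstf1, Prc1 with Rccd1, Kif20a with Brd8 and Cdc23, and Ccne2 with Ints8, and their values carry the same limit.

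In brown fat the cell cycle genes were higher in DBA/2J than in the other 3 strains. 29 of the 33 were higher and 0 lower, where 19.9% of all 20210 genes were higher and 14.8% lower. Their median log2 difference was 1.38, against 0.02 over all genes. All 7 mitotic cyclins and kinases, all 6 spindle genes, 7 of 8 kinetochore genes and 7 of 10 genes of the G1/S group were called, and both proliferation markers. The 4 members not called were Ube2c, Ccne2, Mcm6 and Tyms.

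Prc1, which bundles microtubules in the midzone of the dividing cell, separated DBA/2J from every other brown fat library. It had 6.18 and 4.36 CPM in DBA/2J mice on the vegan diet, 4.34 and 5.13 on the vegetarian, 7.07 and 5.29 on the Mediterranean and 5.44 and 6.90 on the American, against 0.358 to 2.38 CPM, with a median of 1.15, in the other 24 libraries. The log2 difference was 2.31 (SE 0.135, edgeR adjusted p = 5.16e-14), and Prc1 alone of the 33 did not overlap, where 0.96% of all genes lay higher in DBA/2J without overlap. Mki67 had 16.6 and 3.76 CPM in DBA/2J mice on the vegan diet, 4.03 and 10.7 on the vegetarian, 18.1 and 13.8 on the Mediterranean and 12.6 and 17.5 on the American, against 0.551 to 9.04 CPM, with a median of 2.46, in the other strains. Mice 48 (vegan) and 42 (vegetarian) thus lay within the range of the others and the other 6 above it. The log2 difference of Mki67 was 2.34 (SE 0.263, edgeR adjusted p = 5.43e-08).

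Mice 48 and 42 were also the lowest DBA/2J libraries for Top2a, Birc5 and Cdk1. Top2a ran from 2.11 to 11.7 CPM in DBA/2J, with a median of 9.77, against 0.386 to 4.47 CPM in the other strains (log2 difference 2.19, SE 0.238, edgeR adjusted p = 2.38e-08). Birc5 averaged 2.12 ± 0.8504 CPM in DBA/2J (SD, n = 8) and 0.495 ± 0.203 CPM in the others (n = 24), a log2 difference of 2.14 (SE 0.201, edgeR adjusted p = 1.18e-09). Cdk1, the kinase that drives entry into mitosis, averaged 3.01 ± 1.20 CPM in DBA/2J and 0.872 ± 0.469 CPM in the others (log2 difference 1.91, SE 0.1998, edgeR adjusted p = 9.65e-09). Rrm2, the small subunit of ribonucleotide reductase that peaks in S phase, differed by 1.76 (SE 0.162, edgeR adjusted p = 8.32e-10). Mcm5, a subunit of the replicative helicase, differed by 1.14 (SE 0.125, edgeR adjusted p = 2.18e-08) and E2f1 by 1.32 (SE 0.131, edgeR adjusted p = 3.09e-09). Mcm6 of the same helicase averaged 4.83 ± 2.01 CPM in DBA/2J and 5.10 ± 1.49 CPM in the others and was not called.

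A/J brown fat lay at the other end. 26 of the 33 genes were lower than in the other 3 strains and 0 higher, where 18.5% of all genes were lower and 17.3% higher, and the median log2 difference was -0.90, against 0.000732 over all genes. Bub1b, the checkpoint kinase BubR1, had 0.0495 to 0.441 CPM in A/J, with a median of 0.218, against 0.583 to 3.18 CPM, with a median of 1.37, in the others. The groups did not overlap, as for 0.623% of all genes in that direction, and the log2 difference was -2.78 (SE 0.331, edgeR adjusted p = 1.52e-07). Prc1 averaged 0.596 ± 0.198 CPM in A/J and 2.88 ± 2.07 CPM in the others, a log2 difference of -1.94 (SE 0.179, edgeR adjusted p = 1.31e-09). Mki67 averaged 1.21 ± 0.599 CPM in A/J and 6.39 ± 5.46 CPM in the others (log2 difference -2.02, SE 0.340, edgeR adjusted p = 3.65e-05), and the ranges overlapped. Since the other strains include DBA/2J, the contrast was also set against SJL and C57BL/6J alone, a comparison added after the data were seen. Then 19 members were lower and 2, Pcna and Kif20a, higher, where 15.4% of all genes were lower and 14.6% higher, and Mki67 and Top2a stayed among the lower ones.

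SJL and C57BL/6J brown fat depended more on which strains they were set against. Against all other strains SJL had 4 members higher (Tyms, Mcm6, Ccne1 and Cdc20) and 2 lower (Pcna and Ccna2), where 12.3% of all genes were higher and 11.5% lower. Against A/J and C57BL/6J alone SJL had 21 higher, Mki67, Top2a, Cdk1 and Rrm2 among them, and 1 lower, Pcna, where 14.8% and 12.1% of all genes were. C57BL/6J had 1 member higher, Bub1b, and 12 lower against all other strains, where 13.4% of all genes were higher and 12.8% lower. Against A/J and SJL alone, C57BL/6J had 4 higher and 2 lower, where 13.8% and 12.5% of all genes were. Foxm1, the transcription factor of the mitotic genes, was lower in both C57BL/6J comparisons, with 0.888 ± 0.274 CPM in C57BL/6J and 2.24 ± 1.14 CPM in the other 3 strains (log2 difference -1.22, SE 0.209, edgeR adjusted p = 4.52e-05). Foxm1 shares 382 exon bases with Rhno1 on the other strand and 144 with Tex52 on its own strand. Of its values above 0, 73.75% were not whole.

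Macrophage and adipocyte progenitor genes moved with the cell cycle genes across brown fat strains. Of 7 macrophage markers 6 were higher in DBA/2J, and all 7 were lower in A/J. Their summed TPM ran from 210.2 to 424 in DBA/2J, 166 to 375 in SJL, 109 to 169 in A/J and 98.1 to 268 in C57BL/6J. Of 5 progenitor markers 4 were higher in DBA/2J and 3 lower in A/J, and their sum ran from 157 to 295 TPM in DBA/2J, 175 to 252 in SJL, 67.6 to 113 in A/J and 105 to 171 in C57BL/6J. DBA/2J mice 48 and 42, low in Mki67, had the 2 lowest DBA/2J macrophage sums, 210.2 and 215 TPM. None of 7 B cell markers differed in DBA/2J, 1 (Blk) was lower in A/J, and their sum ran from 2.11 to 89.4 TPM in DBA/2J. No marker of these 3 lists was at 0 throughout. The part of these cells in the strain differences was not tested. Without the brown fat libraries that carry another tissue, and without those high in Cd79a, the DBA/2J count was 29 higher and 0 lower both times. Shares of all genes in these fits are not given here. Against SJL and A/J alone, which share its alignment setting, DBA/2J had 28 higher and 0 lower, where 20% of all genes were higher and 15.3% lower.

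**Figure D3:**
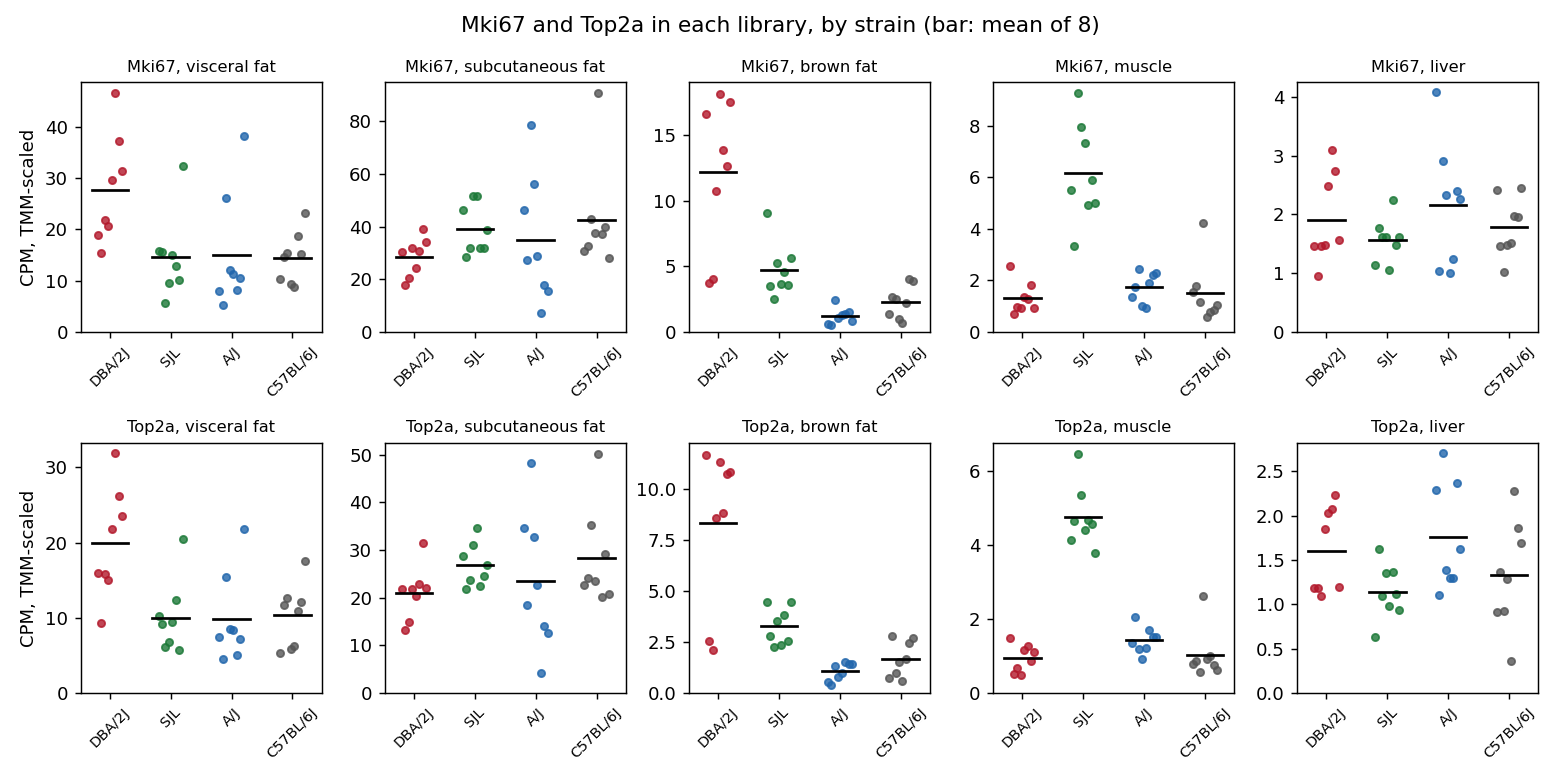
TMM-scaled CPM of Mki67 (top) and Top2a (bottom) in each library of the 5 tissues by strain, with a bar at the mean of 8. DBA/2J stands highest in brown and visceral fat and SJL in muscle, while subcutaneous fat and liver show overlapping strains.

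In visceral fat the genes were again higher in DBA/2J. 29 of the 33 were higher and 1, Mcm6, lower than in the other 3 strains, where 15.9% of all 22715 genes were higher and 13.3% lower. The median log2 difference was 0.75, against -0.05 over all genes, and Aurka, Bub1b and Ube2c were not called. Mki67 had 15.4 to 46.6 CPM in DBA/2J, with a median of 25.7, against 5.33 to 38.1 CPM, with a median of 12.5, in the others. The groups overlapped, and so did those of every other member in visceral fat. The log2 difference of Mki67 was 0.91 (SE 0.238, edgeR adjusted p = 0.00491), and that of Top2a was 0.98 (SE 0.218, edgeR adjusted p = 0.00121).

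The members with the smallest adjusted p in that comparison were mitotic genes. Prc1 averaged 8.85 ± 2.38 CPM in DBA/2J (SD, n = 8) and 4.03 ± 1.70 CPM in the others (n = 24; log2 difference 1.15, SE 0.195, edgeR adjusted p = 6.41e-05). Ccnb1 and Ccnb2, the B-type cyclins that activate Cdk1, differed by 1.21 (SE 0.206, edgeR adjusted p = 6.86e-05) and 1.21 (SE 0.214, edgeR adjusted p = 0.000104). Bub1 averaged 2.70 ± 1.02 CPM in DBA/2J and 1.08 ± 0.621 CPM in the others (log2 difference 1.33, SE 0.228, edgeR adjusted p = 7.36e-05). Cenpf averaged 5.74 ± 2.20 CPM in DBA/2J and 2.23 ± 1.36 CPM in the others (log2 difference 1.38, SE 0.2497, edgeR adjusted p = 0.00014). Kif20a, a kinesin of cytokinesis, had a smaller difference and a small spread, at 11.9 ± 1.63 CPM in DBA/2J and 8.35 ± 1.76 CPM in the others (log2 difference 0.53, SE 0.0923, edgeR adjusted p = 9.03e-05). Kif20a shares 2748 exon bases with Cdc23 and 338 with Brd8 on the other strand, and their part in its values was not tested. Mcm6 ran against these mitotic genes, at 13.96 ± 4.65 CPM in DBA/2J and 18.6 ± 5.33 CPM in the others (log2 difference -0.44, SE 0.138, edgeR adjusted p = 0.0169).

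Without the 10 visceral libraries that carry another tissue, 24 members were higher in DBA/2J and 2 lower, where 16.2% and 13.2% of all genes were. Without those high in Ckm as well, 22 were higher and 1 lower, with the share of all genes in that fit not given here. Against SJL and A/J alone 29 were higher and 1 lower, where 14.7% and 13.2% of all genes were. Of 7 macrophage markers 2 were higher in DBA/2J, and of 5 progenitor markers 1 was. The macrophage sum ran from 1492 to 2191 TPM in DBA/2J and 716 to 2083 TPM in the others, and the progenitor sum from 604 to 692 TPM in DBA/2J and 233 to 699.9 TPM in the others. None of 7 B cell markers differed, and their sum ran from 24.2 to 162 TPM in DBA/2J and 12.0 to 791 TPM in the others. No marker of the 3 lists was at 0 throughout, and their part in the result was not tested. The other strains gave few calls in visceral fat. A/J had 4 members lower (Ccne1, Mcm2, Aurka and Rrm2) and 0 higher, where 5.3% of all genes were lower and 8.1% higher. SJL had 3 lower (Pcna, Kif20a and E2f1) and 0 higher, where 8.89% and 8.7% were; 7 of 7 T cell and 5 of 7 B cell markers were higher in SJL. C57BL/6J had 1 higher (Bub1b) and 0 lower, where 6.66% and 5.82% were. The A/J count was 0 without the libraries that carry another tissue or are high in Ckm. The 4 A/J calls were absent when DBA/2J was left out of the other strains, and 2 members, E2f1 and Kif20a, were then higher in A/J, where 7.55% of all genes were.

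**Figure D4:**
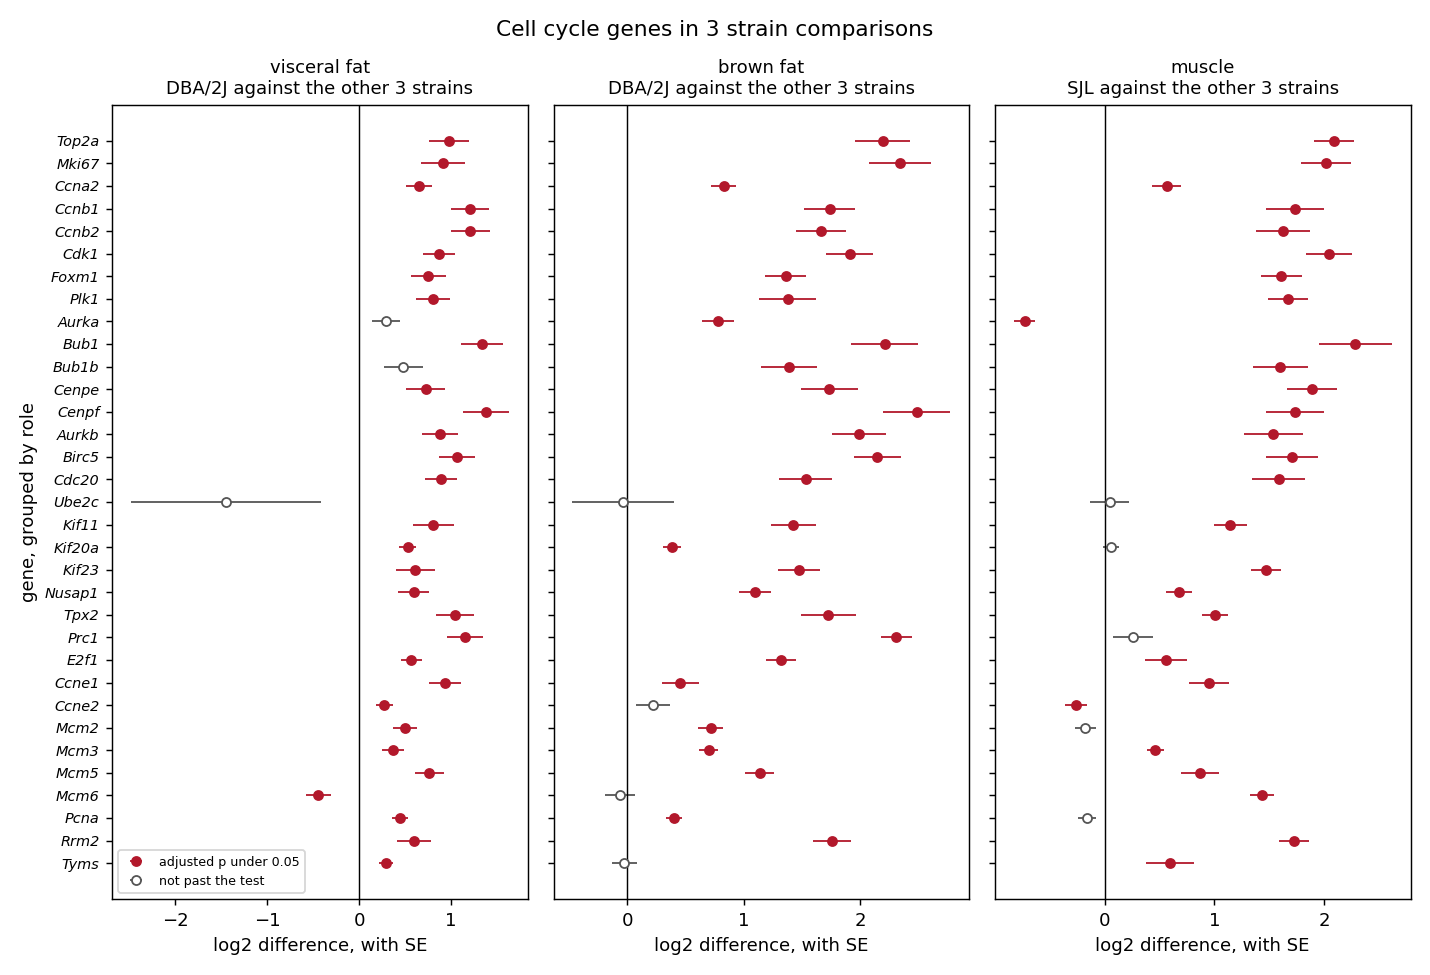
Log2 differences with SE of the 33 genes for DBA/2J against the other 3 strains in visceral and brown fat, and for SJL against the other 3 in muscle; filled points have an adjusted p under 0.05. Most points lie right of 0 in all 3 panels, with Mcm6 left of 0 in visceral fat and Aurka and Ccne2 left of 0 in muscle.

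In muscle the strain that stood apart was SJL. 26 of the 33 genes were higher and 2 lower than in the other 3 strains, where 20.9% of all 20118 genes were higher and 16.3% lower, and the median log2 difference was 1.43, against 0.01 over all genes. 7 members were higher in every SJL library than in any other: Top2a, Cdk1, Foxm1, Cenpe, Kif23, Mcm6 and Rrm2, where 2.23% of all genes were. Top2a had 4.13 and 4.64 CPM in SJL mice on the vegan diet, 6.45 and 5.34 on the vegetarian, 4.41 and 4.68 on the Mediterranean and 4.55 and 3.77 on the American, against 0.484 to 2.61 CPM, with a median of 1.05, in the others. SJL libraries on all 4 diets lay above the rest, with a log2 difference of 2.09 (SE 0.186, edgeR adjusted p = 3.54e-10). Mki67 had 3.34 to 9.25 CPM in SJL, with a median of 5.70, against 0.599 to 4.25 CPM, with a median of 1.32, in the others (log2 difference 2.02, SE 0.225, edgeR adjusted p = 2.6e-08). It overlapped through SJL mouse 64 on the vegan diet and C57BL/6J mouse 12 on the vegetarian diet.

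Mcm6 averaged 8.03 ± 0.579 CPM in SJL (SD, n = 8) and 3.48 ± 1.78 CPM in the others (n = 24; log2 difference 1.43, SE 0.108, edgeR adjusted p = 1.11e-11). Rrm2 averaged 3.76 ± 0.607 CPM in SJL and 1.16 ± 0.326 CPM in the others (log2 difference 1.72, SE 0.133, edgeR adjusted p = 1.97e-11). Kif23, the midzone kinesin of cytokinesis, averaged 1.97 ± 0.580 CPM in SJL and 0.699 ± 0.172 CPM in the others (log2 difference 1.47, SE 0.137, edgeR adjusted p = 9.59e-10). Cdk1 differed by 2.04 (SE 0.207, edgeR adjusted p = 4.63e-09) and Plk1 by 1.67 (SE 0.181, edgeR adjusted p = 1.76e-08). Aurka and Ccne2, 2 of the genes whose levels in muscle were high beside other tissues, were lower in SJL. Aurka averaged 8.60 ± 1.08 CPM in SJL and 15.05 ± 5.74 CPM in the others (log2 difference -0.73, SE 0.0976, edgeR adjusted p = 6.49e-07), and Ccne2 averaged 5.27 ± 0.907 CPM in SJL and 6.37 ± 1.43 CPM in the others (log2 difference -0.26, SE 0.102, edgeR adjusted p = 0.043).

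SJL muscle was also higher in all 7 macrophage markers, all 7 T cell markers, 3 of 5 progenitor markers, with 1 lower, and 3 of 6 markers of regenerating muscle. The macrophage sum ran from 456 to 779 TPM in SJL, 216 to 313 in A/J, 186 to 262 in DBA/2J and 167 to 383 in C57BL/6J, so that SJL did not overlap the rest. The T cell sum ran from 3.17 to 12.3 TPM in SJL and 0.471 to 4.03 TPM in the others. The progenitor sum ran from 246 to 353 TPM in SJL and 125 to 203 TPM in the others. The sum of the regeneration markers, which include Myog and Myh3, ran from 122 to 213 TPM in SJL, 89.0 to 162 in A/J, 58.7 to 153 in DBA/2J and 43.2 to 121 in C57BL/6J. No marker of these lists was at 0 throughout, and their part in the SJL values was not tested. Against DBA/2J and A/J alone SJL had 24 members higher and 2 lower, where 18.6% and 14.2% of all genes were. With limma on log2(TPM + 1), which kept 13 of the 33 genes at a mean of 1 TPM or more, 9 were called, 8 higher and 1 lower. The share of all genes in that fit is not given here.

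The other strains of muscle had fewer calls, and many of the lower ones ended once SJL was left out of the other strains. C57BL/6J had 2 higher (13.1% of all genes) and 13 lower (14.2%) against all other strains, and 4 higher (11.2%) and 1 lower (9.38%) without SJL. DBA/2J had 2 higher (6.7%) and 13 lower (8.93%), and 3 higher (5.72%) and 4 lower (5.67%) without SJL. A/J had 3 higher (5.79%) and 4 lower (6.08%), and 6 higher (7.98%) and 4 lower (7.19%) without SJL. Without the libraries that carry another tissue the C57BL/6J count was 2 higher and 6 lower, with the share of all genes in that fit not given here. Some members stood apart on their own. Mcm6 had 0.879 to 1.98 CPM in DBA/2J, with a median of 1.12, against 2.88 to 8.76 CPM in the others, with no overlap, as for 0.318% of all genes (log2 difference -2.14, SE 0.135, edgeR adjusted p = 4.53e-13). Tpx2 had 1.98 to 3.29 CPM in A/J, with a median of 2.63, against 3.86 to 14.1 CPM in the others, again with no overlap, as for 0.219% of all genes (log2 difference -1.66, SE 0.139, edgeR adjusted p = 2.57e-10). Aurka was higher in A/J, with 21.8 ± 4.30 CPM in A/J and 10.6 ± 2.48 CPM in the others (log2 difference 1.05, SE 0.0886, edgeR adjusted p = 3.55e-10).

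In subcutaneous fat, where the genes were most abundant, strains differed for few of them although they differed for many other genes. DBA/2J had 4 members higher (E2f1, Ccne2, Prc1 and Cdk1) and 4 lower (Mcm6, Mcm2, Mcm3 and Bub1b), where 25.1% of all 23508 genes were higher and 20.5% lower. SJL had 3 higher (Mcm6, Mcm2 and Kif23) and 1 lower (E2f1), where 21.9% of all genes were higher and 21.9% lower. A/J had E2f1 higher and 0 lower, where 11.3% of all genes were higher and 8.17% lower, and C57BL/6J had Bub1b and Mcm6 higher, where 13.6% were. The other strains there include DBA/2J, low in Mcm6, and SJL, low in E2f1. Mcm6 had 29.4 to 57.3 CPM in C57BL/6J, 31.0 to 52.8 in SJL and 16.3 to 55.4 in A/J. E2f1 had 11.9 to 19.6 CPM in A/J, 12.6 to 19.7 in DBA/2J, 8.27 to 14.9 in C57BL/6J and 6.14 to 9.47 in SJL. Without the 5 libraries high in Ckm the counts were larger for SJL, with 9 higher and 1 lower, where 22.2% and 22.8% of all genes were, and for A/J, with 1 higher and 3 lower, where 9.37% and 6.21% were. Mcm6 averaged 14.8 ± 2.98 CPM in DBA/2J (SD, n = 8) and 39.3 ± 9.60 CPM in the others (n = 24; log2 difference -1.41, SE 0.153, edgeR adjusted p = 3.78e-08). E2f1 averaged 15.9 ± 2.18 CPM in DBA/2J and 11.2 ± 3.65 CPM in the others (log2 difference 0.56, SE 0.0914, edgeR adjusted p = 2.17e-05). Mki67 averaged 28.6 ± 7.11 CPM in DBA/2J and 38.7 ± 18.3 CPM in the others, a difference that did not pass the test (log2 difference -0.37, SE 0.264, edgeR adjusted p = 0.253). Nor did that of Top2a, at 21.0 ± 5.51 CPM in DBA/2J and 26.1 ± 10.2 CPM in the others (log2 difference -0.27, SE 0.245, edgeR adjusted p = 0.374). The B cell sum ran from 313 to 702 TPM in DBA/2J, 387 to 1143 in SJL, 2.80 to 1108 in A/J and 635 to 1300.3 in C57BL/6J, and its part was not tested.

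Liver had the lowest levels for most members and a mixed picture by strain over 18636 genes tested. DBA/2J had 9 members higher (14.6% of all genes) and 1, Mcm6, lower (11.5%). SJL had 1, Mcm6, higher (16.5%) and 7 lower (13.6%). A/J had 3 higher (14.7%) and 7 lower (13.9%), and C57BL/6J had 7 higher (14%) and 1, Foxm1, lower (12.7%). Mki67 averaged 1.90 ± 0.758 CPM in DBA/2J and 1.84 ± 0.719 CPM in the others, and neither it nor Top2a was called in any strain. Rrm2 averaged 5.37 ± 2.46 CPM in C57BL/6J and 1.69 ± 0.694 CPM in the others (log2 difference 1.67, SE 0.181, edgeR adjusted p = 8.46e-09). Prc1 averaged 1.82 ± 0.769 CPM in DBA/2J and 0.651 ± 0.257 CPM in the others (log2 difference 1.47, SE 0.187, edgeR adjusted p = 2.49e-07). Pcna had 8.58 to 11.8 CPM in SJL, with a median of 10.04, against 13.1 to 20.6 CPM in the others, with no overlap (log2 difference -0.71, SE 0.0731, edgeR adjusted p = 3.12e-09). Such separation was found for 0.628% of all genes lower in SJL.

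Some members had the same strain difference in several tissues, while 24 pairs of a member and a strain were called in opposite directions in different tissues. Prc1 was higher in DBA/2J in all 5 tissues, with log2 differences of 0.48 to 2.31. E2f1 was higher in DBA/2J in 4 tissues, all but muscle, at 0.56 to 1.32, and lower in SJL in visceral fat, subcutaneous fat and liver, by -0.52, -0.83 and -0.84, but higher in SJL muscle, by 0.56. Mcm6 was lower in DBA/2J in 4 tissues, all but brown fat, at -2.14 to -0.44, and higher in SJL in 4 tissues, all but visceral fat, at 0.57 to 1.43. Bub1b was higher in C57BL/6J in 4 tissues, all but muscle, at 0.68 to 1.503. Mcm2, another helicase subunit, was lower in A/J in 4 tissues, all but subcutaneous fat, at -0.81 to -0.43. Pcna was lower in SJL in visceral fat, brown fat and liver, by -0.53, -0.62 and -0.71. Mki67 and Top2a were higher in DBA/2J in visceral and brown fat and lower in DBA/2J in muscle, where the other strains include SJL. Without SJL the muscle differences of Mki67 and Top2a were -0.23 (SE 0.274, edgeR adjusted p = 0.685) and -0.35 (SE 0.231, edgeR adjusted p = 0.382) and did not pass the test. Prc1 shares 1092 exon bases with Rccd1 on the other strand, and 46.9% of its values above 0 were not whole. The values of Mcm3, Mcm5 and Rrm2 were all whole, and those of Mcm6 were not whole in 15.6% of cases.

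No member was called for any diet in visceral fat, where no gene of all 22715 was called either (0% in each direction). On the unadjusted scale the cell cycle genes were on the low side in mice on the vegan diet: 25 of 33 had an unadjusted edgeR p under 0.05 in the vegan against the American comparison, all lower, where 5.55% of all genes were lower and 2.54% higher by that measure. 32 of the 33 log2 differences were below 0, where 50% of all genes were, and their median was -0.59 against -0.000238 over all genes. By group the medians were -0.88 for the proliferation markers, -0.77 for the kinetochore group, -0.62 for the spindle group, -0.58 for the mitotic cyclins and kinases and -0.43 for the G1/S group. The vegetarian against the American diet had 15 members with an unadjusted p under 0.05, all lower, where 2.49% of all genes were, and a median of -0.45. The Mediterranean diet had 3, where 4.34% of all genes were lower by that measure, and a median of -0.38. These 3 comparisons share the 8 American libraries.

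**Figure D5:**
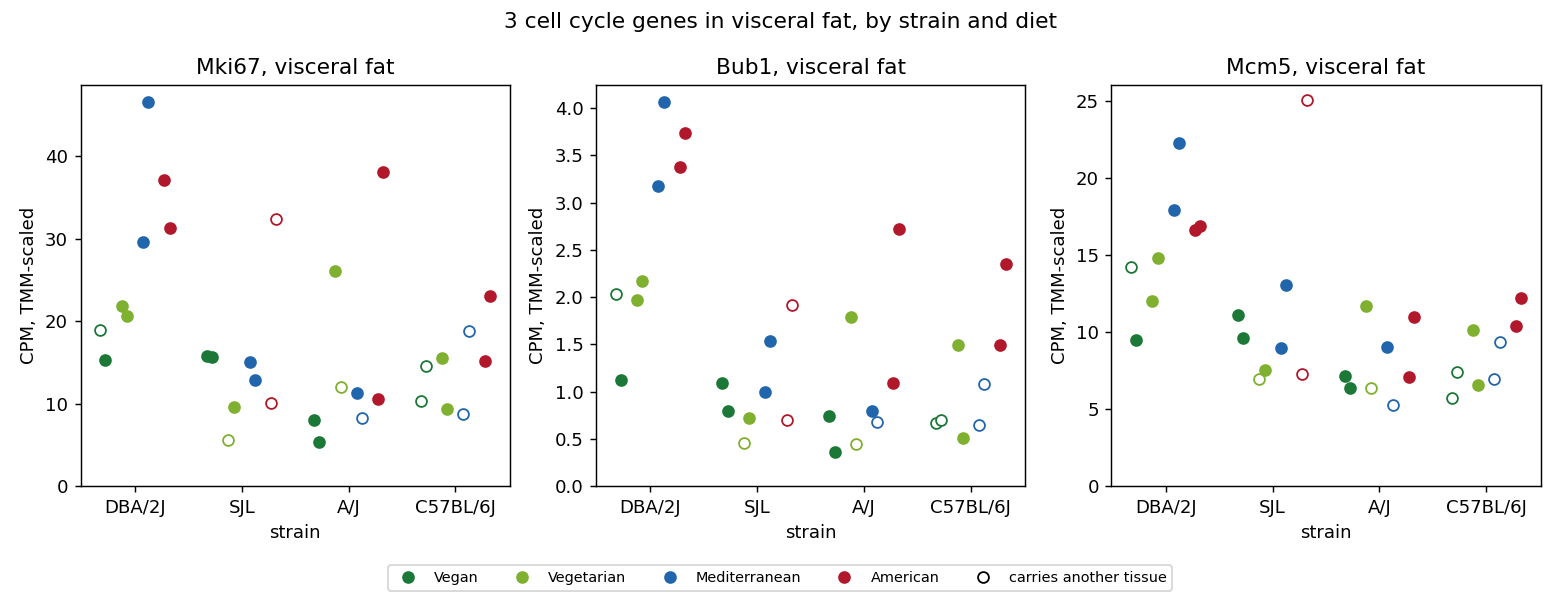
TMM-scaled CPM of Mki67, Bub1 and Mcm5 in each visceral fat library by strain and diet; hollow points are libraries that carry another tissue. Within DBA/2J both vegan libraries lie below both American libraries for each gene, and within A/J 1 American library stands above the rest for Mki67 and Bub1.

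Mki67 in visceral fat had 19.0 and 15.4 CPM in DBA/2J mice on the vegan diet, against 37.2 and 31.4 CPM in DBA/2J mice on the American diet. In A/J it had 8.04 and 5.33 CPM on the vegan diet, against 10.6 and 38.1 CPM on the American diet. In C57BL/6J it had 10.4 and 14.6 CPM on the vegan diet, against 15.1 and 23.1 CPM on the American diet. SJL overlapped, with 15.8 and 15.6 CPM on the vegan diet against 10.1 and 32.4 CPM on the American diet, so in 3 of 4 strains both vegan libraries were below both American ones. Once libraries that carry another tissue are left out, only DBA/2J, with 1 vegan library, and A/J keep both diets. Over the 8 libraries a diet the log2 difference was -0.92 (SE 0.308, edgeR adjusted p = 0.463). That of Bub1, the member with the smallest p, was -1.23 (SE 0.305, edgeR adjusted p = 0.421), and that of Plk1 was -0.87 (SE 0.241, edgeR adjusted p = 0.463). DESeq2 called 1 member.

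Leaving out Ube2c, the strain means were lower on the vegan than on the American diet for 31 of 32 members in DBA/2J, 29 in SJL, 29 in A/J and 30 in C57BL/6J, with median log2 ratios of -0.56, -0.40, -0.87 and -0.40. Genes of 1 library share its cells and are no replicates, and each mean rests on 2 mice. Single American libraries decided several of these values. Without SJL mouse 50 the SJL median was 0.24, with 25 members higher and 7 lower on the vegan diet, without A/J mouse 20 the A/J median was -0.26, and without C57BL/6J mouse 2, which is high in Ckm, the C57BL/6J median was -0.16, with 11 higher and 21 lower. In DBA/2J the median was -0.30 without vegan mouse 48 and -0.90 without vegan mouse 45. 3 of the 8 vegan libraries and 2 of the 8 American ones carried another tissue by Alb or Wt1, and 1 more American one was high in Ckm. Without all visceral libraries of these kinds, whatever their diet, both diets remained only in DBA/2J and A/J. DBA/2J kept 1 vegan and 2 American libraries and A/J 2 of each, with medians of -0.90 and -0.87. In that fit 19 members had an unadjusted p under 0.05 on the vegan diet, all lower. The share of all genes by that measure is not given here for that fit. All 7 T cell markers were lower on the vegan diet at an unadjusted edgeR p under 0.05, with 2 of 7 B cell markers and 0 of 7 macrophage markers, and none was called. The B cell sum ran from 12.0 to 85.5 TPM on the vegan diet and from 13.7 to 791 TPM on the American diet, and the T cell sum from 5.47 to 19.9 TPM on the vegan diet and from 4.84 to 647 TPM on the American diet. No marker of these 3 lists was at 0 throughout, and their part was not tested.

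Outside visceral fat the diets called 1 member in all. Mcm3 was lower in brown fat on the vegetarian than on the American diet, by -0.46 (SE 0.102, edgeR adjusted p = 0.0477) on the log2 scale, where 0.267% of all genes were lower and 0% higher. The count fell to 0 in 25 of the 32 fits that left out 1 library, and with RLE size factors. Mcm5 lay just outside, at -0.72 (SE 0.165, edgeR adjusted p = 0.0504). The median of the 33 in that comparison was -0.46, against -0.03 over all genes, and 16 had an unadjusted p under 0.05, all lower, where 8.27% of all genes were. The Mediterranean and the vegan diet each had 4 members with an unadjusted edgeR p under 0.05 in brown fat, where 14.2% and 15.4% of all genes had one. edgeR called 0 members there, where 0.104% and 0.0099% of all genes were called lower, and DESeq2 called 1 and 0. In subcutaneous fat edgeR called 0 members on any diet, 0 had an unadjusted p under 0.05, where 3.88%, 2.96% and 3.88% of all genes had one on the Mediterranean, vegetarian and vegan diet, and DESeq2 called 0. In muscle edgeR called 0, with 2, 0 and 0 at an unadjusted p under 0.05 for the same diets in that order, where 4.88%, 1.54% and 2.86% of all genes had one. In liver edgeR called 0 members, where 0.145%, 0% and 0.113% of all genes were called. 3, 5 and 5 liver members had an unadjusted p under 0.05, where 16.3%, 4.95% and 12.5% of all genes had one. DESeq2 called 0 members in muscle and 0 in liver. Nor were the diet differences found to differ between strains. edgeR's test of the 9 interaction terms called 0 members in any tissue, with 1, 2, 2, 2 and 7 at an unadjusted p under 0.05 in visceral fat, subcutaneous fat, brown fat, muscle and liver, where 14.7%, 5.28%, 7.9%, 6.81% and 8.09% of all genes had one. It called 0.392% of all genes in visceral fat, 0.0099% in brown fat and 0% in the others.

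A further 94 cell cycle genes, listed by function, were read in the same fits. In DBA/2J brown fat 53 of the 93 tested were higher and 7 lower, where 19.9% and 14.8% of all genes were. In DBA/2J visceral fat 46 of 94 were higher and 4 lower, where 15.9% and 13.3% of all genes were. In SJL muscle 50 of 93 were higher and 6 lower, where 20.9% and 16.3% of all genes were. In A/J brown fat 9 of 93 were higher and 49 lower, where 17.3% and 18.5% of all genes were. Beside the same shares of all genes, of 37 other genes of mitosis 31 were higher and 1 lower in DBA/2J brown fat, 28 and 0 in DBA/2J visceral fat, 29 and 1 in SJL muscle, and 1 and 28 in A/J brown fat. Hmmr, which organises the spindle, differed in DBA/2J in brown fat by 2.54 (SE 0.257, edgeR adjusted p = 3.09e-09) and in visceral fat by 1.18 (SE 0.206, edgeR adjusted p = 9.1e-05). Pttg1, the securin that holds sister chromatids together, was the gene of that list lower in DBA/2J brown fat and in SJL muscle, and it was lower in A/J brown fat as well, by -2.13 (SE 0.215, edgeR adjusted p = 1.07e-08). The other strains of these contrasts include C57BL/6J, where Pttg1 was higher in all 5 tissues, by 4.36 (SE 0.164, edgeR adjusted p = 3.89e-18) in brown fat and 4.59 (SE 0.192, edgeR adjusted p = 4.59e-17) in muscle.

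CDK inhibitors and the Rb, E2F and DREAM genes were called in both directions, except the inhibitors in SJL muscle, of which 0 were lower. Of the 6 or 7 inhibitors tested 1 was higher and 1 lower in DBA/2J brown fat, 1 and 1 in DBA/2J visceral fat, 2 and 0 in SJL muscle, and 2 and 1 in A/J brown fat. Of 16 Rb, E2F and DREAM genes 5 were higher and 3 lower in DBA/2J brown fat, 4 and 2 in DBA/2J visceral fat, 6 and 2 in SJL muscle, and 5 and 4 in A/J brown fat. The shares of all genes are those just given. Rbl2, the pocket protein p130 of resting cells, was lower in DBA/2J brown fat by -0.78 (SE 0.0614, edgeR adjusted p = 2.59e-11) and higher in A/J brown fat by 0.62 (SE 0.0566, edgeR adjusted p = 8.64e-10). Rbl2 was also called lower in DBA/2J visceral fat, subcutaneous fat and liver, and in SJL brown fat and muscle. It was called higher in A/J visceral fat, in C57BL/6J brown fat and muscle, and in SJL liver. Of the CDK inhibitors, Cdkn2b (p15) was higher in DBA/2J in brown fat, by 0.79 (SE 0.179, edgeR adjusted p = 0.000923), and in visceral fat, by 1.20 (SE 0.207, edgeR adjusted p = 7.92e-05), and it was lower in A/J brown fat by -1.62 (SE 0.213, edgeR adjusted p = 7.76e-07). Cdkn1a (p21) was higher in A/J brown fat by 1.69 (SE 0.228, edgeR adjusted p = 1.86e-06). Cdkn2a, which encodes p16 and p19ARF, was higher in SJL muscle by 2.23 (SE 0.233, edgeR adjusted p = 4.79e-09). Cdkn2a was also called higher in A/J muscle, and lower in DBA/2J and C57BL/6J muscle, so its difference was not particular to SJL. Ccnd1, cyclin D1 of the G1 phase, was higher in DBA/2J brown fat by 1.63 (SE 0.167, edgeR adjusted p = 1.01e-08). On the vegan against the American diet in visceral fat 0 of the 94 were called, 28 of the 37 other mitotic genes were lower at an unadjusted p under 0.05, where 5.55% of all genes were, and 1 of 18 genes of origin licensing and the replication fork was.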

How the data were processed

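RNA was sequenced from 5 tissues in 160 libraries of 35 mice, 29 of them with all 5 tissues. Per the series' design text the authors used FastQC for quality and Trim Galore for adapters, then HISAT2 on GRCm39, with a relaxed mismatch penalty for strains other than C57BL/6J, and HTSeq with fractional counting. The kit was a stranded TruSeq one. Not given in the sources used here: versions, annotation release, strand of counting. The deposited tables hold estimated counts, 74.4% of the values above 0 whole within 1e-06, and the authors' TPM. GENCODE vM39 named 56236 of the 56980 identifiers, and 0 value columns were left unused.

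Counts were rounded and tested with edgeR 4.0.16 in R 4.3.3 (TMM scaling, filterByExpr with a minimum count of 10 and a total of 15, quasi-likelihood test), with strain and diet as terms in each tissue. Each strain was set against the mean of the other 3 and each diet against the American diet. Tissues were compared over all 160 libraries. P-values were adjusted by Benjamini-Hochberg over all genes of a contrast, with a threshold of 0.05. Within a tissue they measure the spread between these mice. Between tissues they measure the spread between libraries, with those of 1 mouse taken as independent in the main fit. Alternatives were DESeq2 1.42.0, limma 3.58.1 on log2(TPM + 1) for genes with a mean of 1 TPM or more, RLE size factors, no filter, the model of 16 strain and diet groups, and leaving out libraries. The scripts were tested on simulated data, and figures were drawn with Python 3.11.15 and matplotlib 3.10.9.

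The numbers in the labels name mice, so tissues of 1 mouse are paired by design, and a fit with the mouse as a block was an alternative between tissues. Within a tissue each mouse gave 1 library and groups share none. Per contrast, full statistics were given for at most 6 called members, by adjusted p, at most 3 where none was called, and for Mki67 and Top2a. Members and lists were chosen with earlier results of these data known.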

Additional observations from a re-analysis of the deposited data

Results flagged for a closer look

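Of 80 groups of 8 libraries tested for Mki67 and Top2a, 9 held a library whose gap to the nearest of the others exceeded Dixon's 95% critical value as a share of the group's range. Chance flags about 1 in 20 groups only where values are independent and normally distributed. These groups share libraries and hold CPM that was not transformed, so the 9 cannot be read as an excess. All 9 were high values.

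In visceral fat, SJL mouse 50 on the American diet had 32.4 CPM of Mki67, against 5.60 to 15.8 CPM in the other SJL libraries, and 20.5 CPM of Top2a, against 5.64 to 12.3 CPM. That library carries another tissue and had the highest B cell sum in visceral fat, 791 TPM. In subcutaneous fat, C57BL/6J mouse 7 on the Mediterranean diet had 90.5 CPM of Mki67, against 27.9 to 42.7 CPM in the other C57BL/6J libraries.

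In brown fat on the vegetarian diet, DBA/2J mouse 43 had 10.7 CPM of Mki67, against 1.03 to 5.29 CPM in the other vegetarian libraries, and 8.57 CPM of Top2a, against 0.776 to 3.53 CPM. On the vegan diet, DBA/2J mouse 45 had 11.7 CPM of Top2a in brown fat, against 0.386 to 4.45 CPM.

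In muscle, C57BL/6J mouse 12 on the vegetarian diet had 4.25 CPM of Mki67, against 0.599 to 1.78 CPM in the other C57BL/6J libraries, and 2.61 CPM of Top2a, against 0.558 to 1.00 CPM. In liver on the vegan diet, A/J mouse 30 had 4.09 CPM of Mki67, against 0.960 to 2.41 CPM in the other vegan libraries. Each of the groups by diet holds 4 strains.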

How the results depend on the processing

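Of 9033 values of named members under alternatives, 8873 kept their direction and side of the threshold, 148 were no longer called, 11 became called and 1 was reversed: Tyms in visceral fat against liver, at 0.24 with limma on log2(TPM + 1). The cause was not tested for any change below, except that limma tested fewer members. Counts of members called that moved by over 1.5 times were these. With DESeq2 they were 1 for the vegan diet, 2 for C57BL/6J and 7 for A/J in visceral fat, 2 for A/J in subcutaneous fat, and 1 for the Mediterranean and 3 for the vegetarian diet in brown fat. Without libraries that carry another tissue they were 0 for C57BL/6J and 1 for A/J in visceral fat, 2 for A/J in subcutaneous fat, 1 for the Mediterranean and 2 for the vegetarian diet in brown fat, and 8 for C57BL/6J in muscle. With limma they were 0 for A/J in visceral fat, 5 for DBA/2J in subcutaneous fat, 0 for the vegetarian diet, 8 for C57BL/6J, 12 for A/J and 13 for DBA/2J in brown fat, 4 for A/J, 5 for DBA/2J and 9 for SJL in muscle, 4 for C57BL/6J, 6 for DBA/2J and 5 for SJL in liver, and 14 for liver against muscle. The 16-group model gave 2 for A/J in subcutaneous fat and 0 for the vegetarian diet in brown fat. RLE size factors, no filter, the earlier quasi-likelihood method of edgeR and leaving out libraries high in Cd79a each gave 0 for the vegetarian diet in brown fat. Leaving DBA/2J out of the other strains gave 2 for A/J in visceral fat and 6 for C57BL/6J and 22 for SJL in brown fat, and leaving out SJL gave 5 for C57BL/6J and 7 for DBA/2J in muscle. Leaving out C57BL/6J gave 8 for A/J and 5 for SJL in visceral fat and 4 for A/J and 7 for SJL in subcutaneous fat. Without libraries high in Ckm they were 0 for C57BL/6J and 2 for A/J in visceral fat and 4 for A/J and 10 for SJL in subcutaneous fat, and without these and those that carry another tissue 0, 0, 3 and 9. The comparisons with fewer strains, those without libraries high in Ckm and the earlier edgeR method were chosen after seeing the data.

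Leaving out 1 library at a time gave 0 to 3 calls for C57BL/6J and 2 to 10 for A/J in visceral fat (10 without A/J mouse 25). In subcutaneous fat it gave 0 to 3 for C57BL/6J (0 without mouse 7), 1 to 6 for A/J and 4 to 8 for SJL (6 and 8 without A/J mouse 25), and 5 to 11 for DBA/2J (5 without DBA/2J mouse 39). In brown fat it gave 0 to 1 for the Mediterranean diet (1 without DBA/2J mouse 34) and 0 to 3 for the vegetarian diet, with 0 in 25 of the 32 fits. In muscle it gave 9 to 16 for C57BL/6J (9 without C57BL/6J mouse 2). With the mouse as a replicate block, members called were 31, 29, 32 and 33 for visceral fat against brown fat, subcutaneous fat, liver and muscle, 31, 27 and 15 for brown fat against subcutaneous fat, liver and muscle, 33 and 33 for subcutaneous fat against liver and muscle, and 23 for liver against muscle, each within 1.5 times the count without the block. Within a tissue no paired analysis was possible because each mouse gave 1 library. Low counts limit the precision for members such as Bub1 and Cenpf, which averaged under 1 CPM in liver, muscle and brown fat.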
